A study of Drosophila sechellia with 6 samples.

Results

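The entries described here are the small nucleolar RNA (snoRNA) genes of *D. sechellia*, taken as every row of the deposited expression table whose gene name starts with snoRNA. This gave 242 of 17275 entries, on 27 scaffolds of the assembly and each under a name of its own. Libraries of poly(A)-selected RNA were made from whole adult females of strain 14021-0428.25 in 2 groups and sequenced. The OA group fed for 24 hr on food containing 0.7% octanoic acid (OA), the main toxin of the *Morinda citrifolia* fruit on which this species specializes. The control group fed for 24 hr on the same kind of food without OA. Each group had 3 libraries of 10 pooled flies. The sample labels give the age as 1 to 4 d, and the treatment description as 0 to 3 d.

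The table holds 1 value per entry and group, in FPKM, the number of sequenced fragments scaled to the length of the entry and to the depth of the library, which the authors computed over the 3 libraries of a group. No spread between libraries can be given for any value, and no difference below was tested. Differences are on the log2 scale, as the OA value plus 1 FPKM divided by the control value plus 1 FPKM, a scale that understates the difference of low entries. In RNA from whole flies, fewer cells that make a snoRNA and less of it per cell cannot be told apart.

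SnoRNAs guide the modification of ribosomal RNA in the nucleolus. Box C/D snoRNAs assemble with the methyltransferase fibrillarin and direct methylation of ribose, and box H/ACA snoRNAs assemble with a pseudouridine synthase and direct the conversion of uridine to pseudouridine. In *Drosophila*, many are encoded in introns of host genes, often several to a host, and are released from the spliced intron. Mature snoRNAs carry no poly(A) tail, so in libraries made by poly(A) selection the values are those of RNA carried through the selection or present in longer precursors. All 242 names join the word snoRNA to a GM number, and 0 of them tell whether the gene is of the C/D or the H/ACA class. The classes were therefore not separated.

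Of the 242 entries, 83 were listed at 0 in both groups, 20 at 0 in OA only and 23 at 0 in control only. The remaining 116 were above 0 in both. Among all entries of the table, 15.4% were listed at 0 in both groups, 2.35% in OA only and 4.3% in control only. Because an entry can be listed at 0 where its level could not be estimated, these entries are given no fold. Cuffdiff marked 128 of the snoRNA entries as tested (status OK) and 114 as not tested.

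Levels differed widely among the entries above 0. In OA, the 139 entries above 0 had a median of 47.8 FPKM, and in control the 136 entries above 0 had a median of 114 FPKM. In OA 45 entries stood at 100 FPKM or more, against 71 in control. Over all 242 entries, the median was 7.89 FPKM in OA and 18.9 FPKM in control.

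One entry stood far above the others in both groups. *snoRNA:GM27634*, on scaffold 9 from 164676 to 164771, was at 53707.7 FPKM in OA and 38627 FPKM in control, a log2 difference of 0.48. By FPKM it ranked 1 in the whole table in OA and 1 in control, and it is 96 bases long. FPKM is scaled to length and no read counts are given, so the number of reads behind this value is not known. The second snoRNA entry, *snoRNA:GM27650*, ranked 168 in OA and 180 in control. The nearest other entry to *snoRNA:GM27634* lies 671 bases away and was at 1038 FPKM in OA and 816 FPKM in control.

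The sum over all snoRNA entries and the typical entry therefore gave different pictures. The sum was 71902 FPKM in OA and 76939 FPKM in control, a log2 ratio of -0.10. *snoRNA:GM27634* alone made 74.7% of this sum in OA and 50.2% in control. Over the other entries the sum was 18195 FPKM in OA and 38312 FPKM in control, or 2.11-fold lower in OA. With the 10 highest entries left out, the sum was 10562 FPKM in OA and 26433 FPKM in control.

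**Figure D1:**
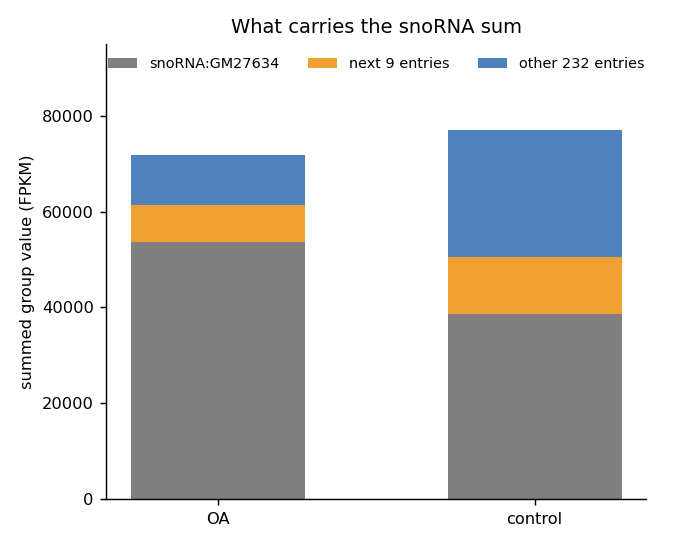
Summed group values (FPKM) of the 242 snoRNA entries in OA and control, stacked as *snoRNA:GM27634*, the next 9 entries by mean level and the other 232 entries. The grey part is 74.7% of the OA bar and 50.2% of the control bar, and the blue part is 10562 FPKM in OA and 26433 FPKM in control.

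Among the 116 entries above 0 in both groups, all of which had a mean of at least 1 FPKM, the median difference was -1.47 on the log2 scale, or 2.78-fold lower in OA. In these entries the median level was 41.7 FPKM in OA and 129 FPKM in control. At least 2-fold lower in OA were 73 entries (62.9%), against 3.62% of all 12002 entries that met the same conditions. At least 2-fold higher in OA were 7 entries (6.03%), against 1.65% of all entries. The other 36 lay between. By any amount, 98 entries (84.5%) were lower and 18 higher in OA, against 42.9% of all entries lower. At least 4-fold lower were 46 entries (39.7%, against 1.79% of all entries), and at least 8-fold lower were 19 (16.4%, against 1.25%). Entries whose names mark neither an RNA class nor a histone are called protein-coding here, by their names alone. They had a median difference of 0.06 (n = 11641), and 1.86% of them were at least 2-fold lower.

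**Figure D2:**
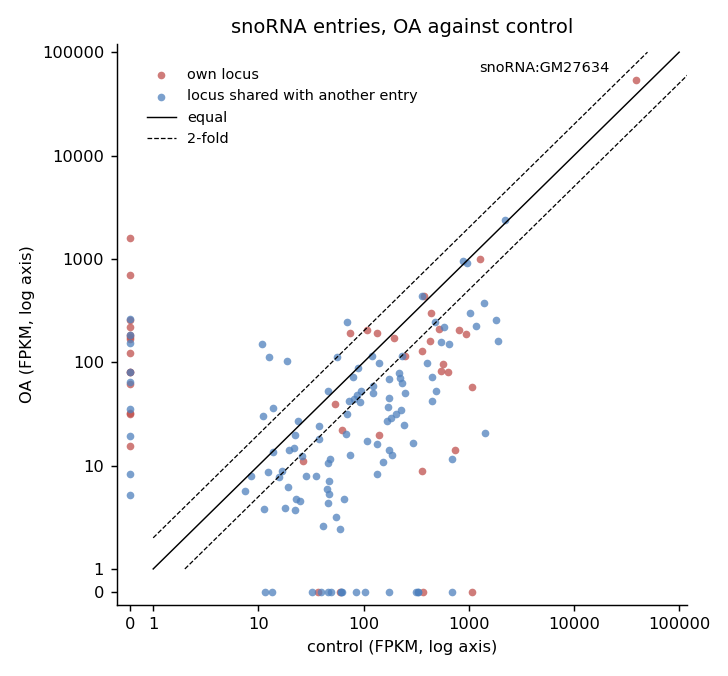
Group values of the 159 snoRNA entries above 0 in at least 1 group, OA against control, in FPKM on log axes with entries listed at 0 set on the line marked 0. Of the 116 points above 0 in both groups, 73 are at least 2-fold lower in OA, and *snoRNA:GM27634* stands alone at the upper right.

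The entries with the highest means did not share 1 direction. *snoRNA:GM27650* was at 2354 FPKM in OA and 2210 FPKM in control, and *snoRNA:GM27560* at 995 FPKM in OA and 1288 FPKM in control. *snoRNA:GM27554* was at 959 FPKM in OA and 881 FPKM in control, and *snoRNA:GM27471* at 908 FPKM in OA and 972 FPKM in control. These 4 entries and *snoRNA:GM27634* differed by less than 1.5-fold between the groups. In the same range of levels, *snoRNA:GM27567* was at 256 FPKM in OA and 1811 FPKM in control, 7.08-fold lower in OA. *snoRNA:GM27470*, which shares a locus on scaffold 0 with the nearly equal *snoRNA:GM27471*, was at 161 FPKM in OA and 1880 FPKM in control, 11.7-fold lower. *snoRNA:GM27594* was at 372 FPKM in OA and 1405 FPKM in control, 3.78-fold lower.

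The 8 most strongly lower entries were at 2.43 to 57.8 FPKM in OA, which their choice by ratio partly fixes. *snoRNA:GM27505* (scaffold 1) was at 20.8 FPKM in OA and 1432 FPKM in control, 68.9-fold lower in OA. *snoRNA:GM27534* (scaffold 2) was at 11.5 FPKM in OA and 687 FPKM in control, and *snoRNA:GM27658* (scaffold 9, 3019258 to 3019411) at 14.05 FPKM in OA and 738 FPKM in control. *snoRNA:GM27536* (scaffold 2, 860868 to 861015) lies just past the locus of *snoRNA:GM27534* and was at 8.92 FPKM in OA and 358 FPKM in control. *snoRNA:GM27570* (scaffold 4, 1333799 to 1333963) was at 57.8 FPKM in OA and 1064 FPKM in control, 18.4-fold lower. *snoRNA:GM27648*, *snoRNA:GM27665* and *snoRNA:GM27559* were between 16.2-fold and 24.7-fold lower, and their OA values were 2.43, 16.6 and 8.26 FPKM.

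The 7 entries at least 2-fold higher in OA were low or moderate in control. *snoRNA:GM27607* (scaffold 6) was at 148.7 FPKM in OA and 10.8 FPKM in control, 13.7-fold higher in OA and the largest difference in this direction. *snoRNA:GM27657* (scaffold 9) was at 113 FPKM in OA and 12.7 FPKM in control, and *snoRNA:GM27684* (scaffold 18) at 102 FPKM in OA and 18.6 FPKM in control. *snoRNA:GM27630* (scaffold 15) was at 245 FPKM in OA and 69.5 FPKM in control. The others were *snoRNA:GM27637*, *snoRNA:GM27591* and *snoRNA:GM27688*, between 2.62-fold and 2.74-fold higher. The next entry, *snoRNA:GM27601*, was at 113 FPKM in OA and 56.3 FPKM in control and lay just under the 2-fold bound, at 0.9975 on the log2 scale.

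Entries listed at 0 in 1 group were not confined to low values in the other. The 20 entries listed at 0 in OA only had control values of 11.6 to 1062 FPKM, with a median of 61.8 FPKM. The highest were *snoRNA:GM27562* at 1062 FPKM in control, *snoRNA:GM27569* at 694 FPKM and *snoRNA:GM27483* at 368 FPKM. Cuffdiff marked *snoRNA:GM27569* and some others of the 20 as not tested. The 23 entries listed at 0 in control only had OA values of 5.19 to 1607 FPKM, with a median of 80.8 FPKM. The highest were *snoRNA:GM27482* at 1607 FPKM in OA, *snoRNA:GM27481* at 706 FPKM and *snoRNA:GM27456* at 265 FPKM. Cuffdiff marked these as tested, but most of the 23 as not tested. The 2 counts, 20 in OA only (8.26%, against 2.35% of the table) and 23 in control only (9.50%, against 4.3%), join opposite patterns. Of the 89 entries with a locus of their own, 4 were listed at 0 in OA only and 14 in control only. Of the 153 entries that share a locus with another entry, 16 were listed at 0 in OA only and 9 in control only.

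The lower values in OA were found at every level of expression. Among 39 entries with a mean under 50 FPKM the median difference was -1.45, and 22 were at least 2-fold lower. Among 22 entries from 50 to 100 FPKM it was -1.08, with 12 lower, and among 22 entries from 100 to 200 FPKM it was -1.54, with 15 lower. Among 19 entries from 200 to 500 FPKM it was -2.01, with 15 lower, and among 14 entries from 500 FPKM it was -1.94, with 9 lower. None of the entries in either of the highest ranges was at least 2-fold higher in OA. All these ranges hold only entries above 0 in both groups. Left out of the highest ranges were *snoRNA:GM27481* and *snoRNA:GM27482*, listed at 0 in control, and *snoRNA:GM27562* and *snoRNA:GM27569*, listed at 0 in OA.

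Values of 5S ribosomal RNA, another short RNA, were examined for even spacing in control. Of 26 copies of 5S ribosomal RNA with a locus of 119 bases, 25 were above 0 in control. Of these, 10 stood at whole multiples of 20.8 FPKM up to 8 times, within 0.02 of a whole number. The step of 20.8 FPKM is the lowest control value itself, so that copy is among the 10 by construction. How many copies would do so without even spacing was not examined. In OA only 9 copies were above 0, and the lowest values were 9.28 and 9.79 FPKM. The spacing of the OA values was not examined. The table holds no read counts, so how many reads stand behind a snoRNA value of this size is not known, and the part of such spacing in the differences of low entries was not tested.

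The position given for an entry is that of its locus, the joined span of all entries that overlap. For 89 snoRNA entries the locus holds no other entry, so its span of 46 to 173 bases, with a median of 81, is that of the gene. The other 153 share a locus of 658 to 84218 bases with at least 1 other entry, and their own length and place within it are not given. Entries with a locus of their own were listed at 0 in both groups in 47 of 89 cases (52.8%), against 36 of 153 (23.5%) of those that share a locus. Where both groups were above 0, the median difference was -1.35 for 24 entries with their own locus and -1.71 for 92 that share one. At least 2-fold lower were 15 of these 24 and 58 of these 92.

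Among the 89, the share listed at 0 is given by length. Of 22 entries under 75 bases, 20 were listed at 0 in OA and 20 in control. Of 46 entries from 75 to 99 bases, 24 were listed at 0 in OA and 33 in control. Of 16 entries from 100 bases up to 150, 7 were listed at 0 in OA and 8 in control, and the 5 entries from 154 to 173 bases were above 0 in both groups. The reads were 50 nt long, so the shortest of these loci hold few positions at which a read can fall entirely inside. The median difference was -2.56 in 13 entries of 100 bases or more and -0.56 in 11 shorter ones. All 5 of the longest entries were at least 2-fold lower. Among them, the 2 entries of 173 bases, *snoRNA:GM27503* and *snoRNA:GM27504*, stood at 80.7 and 95.4 FPKM in OA and at 638 and 570 FPKM in control.

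**Figure D3:**
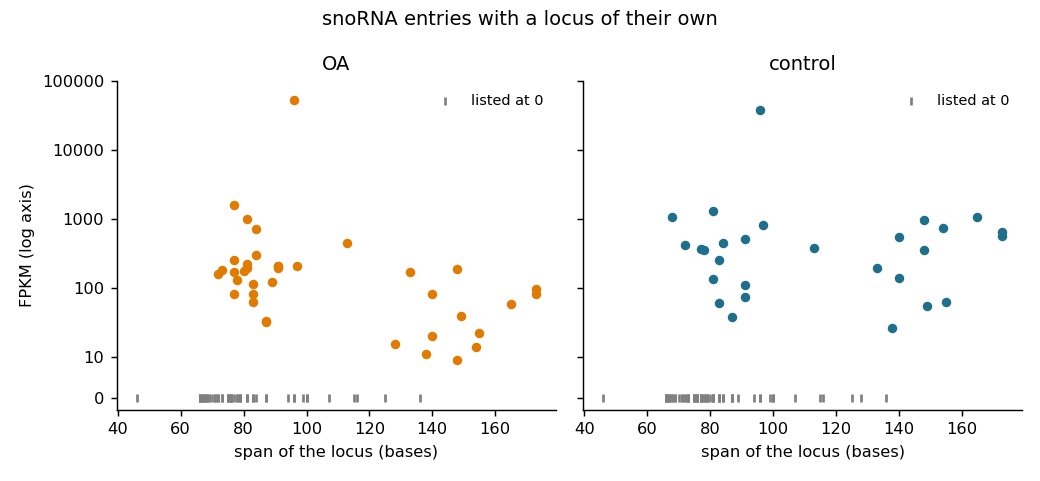
Group values (FPKM, log axis) of the 89 snoRNA entries with a locus of their own against the span of the locus in bases, OA left and control right, with grey ticks for entries listed at 0. Most loci under 75 bases are listed at 0 in both panels, and the 5 longest entries are above 0 in both and lower in OA.

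Protein-coding entries of the same lengths did not share the direction of the snoRNA entries. Among 57 protein-coding entries above 0 in both groups, with a locus of their own of at most 173 bases, the median difference was 0.29, and 6 were at least 2-fold lower and 16 at least 2-fold higher in OA. Their spread was wide, so 2-fold differences are common at these lengths in either direction. Classes of RNA that mostly have no poly(A) tail in their mature form had medians of different sizes. All that could be computed were below 0 except that of miRNA, which rests on 2 entries. The median difference was -2.26 for 26 snRNA entries, with 23 at least 2-fold lower, -3.26 for 6 entries of 18S rRNA and -4.39 for 96 of 5.8S rRNA. For 9 entries of 5S rRNA it was -3.69, and for 3 other entries with names starting with RF0 it was -2.43. All entries of these 2 sets and of 18S and 5.8S rRNA were at least 2-fold lower. It was -0.29 for 103 histone entries, with 7 at least 2-fold lower, and 0.68 for 2 miRNA entries. Of 312 tRNA entries, 309 were listed at 0 in both groups and 0 were above 0 in both, and the sum was 1047 FPKM in OA and 153 FPKM in control. The part of poly(A) selection in the snoRNA result was not tested.

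**Figure D4:**
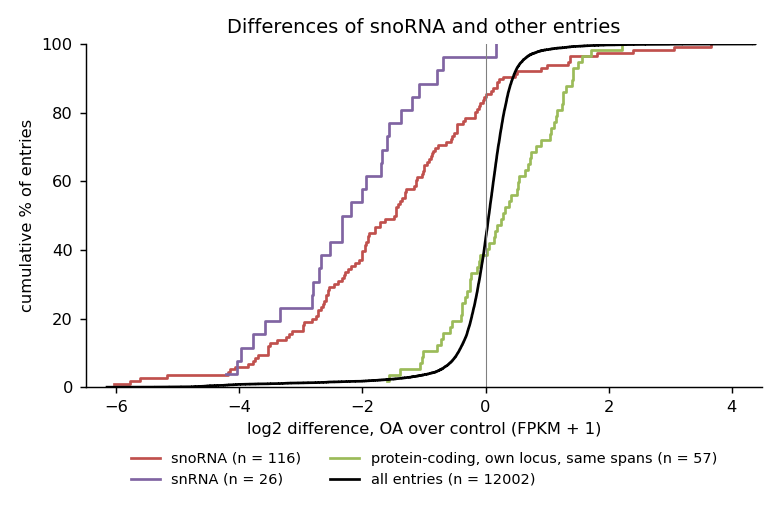
Cumulative share of entries (%) by the log2 difference between OA and control, for 116 snoRNA, 26 snRNA and 57 short protein-coding entries and for all 12002 entries above 0 in both groups with a mean of at least 1 FPKM. The snoRNA curve crosses 50% at -1.47, the snRNA curve at -2.26, the short protein-coding curve at 0.29 and the curve of all entries at 0.05.

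The shared loci allow the snoRNA entries to be set beside a protein-coding entry of the same place. There were 65 such loci, 42 with 1 snoRNA entry and 23 with several, up to 16. In 58 of them exactly 1 other entry was present, and each of these was classed as protein-coding by its name. In 35 loci of this kind the summed snoRNA value was above 0 in both groups. Over these 35 loci the summed snoRNA entries had a median difference of -1.52, and the protein-coding entries one of 0.03. The sums of 22 loci were at least 2-fold lower in OA and those of 3 at least 2-fold higher. None of the 35 protein-coding entries differed by 2-fold in either direction, and their differences lay between -0.51 and 0.50. Such differences were rare among all protein-coding entries, with 1.86% at least 2-fold lower and 1.63% at least 2-fold higher. The snoRNA sum lay below its protein-coding entry in 29 loci and above it in 6. The differences of the snoRNA sums and those of the protein-coding entries had a correlation near 0 (Pearson *r* = -0.05, Spearman rho = -0.07 over 35 loci that share the same libraries, as a description). The narrow range of the protein-coding differences limits what this correlation can show. Reads of a snoRNA and of unspliced host RNA over it cannot be told apart in these values.

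**Figure D5:**
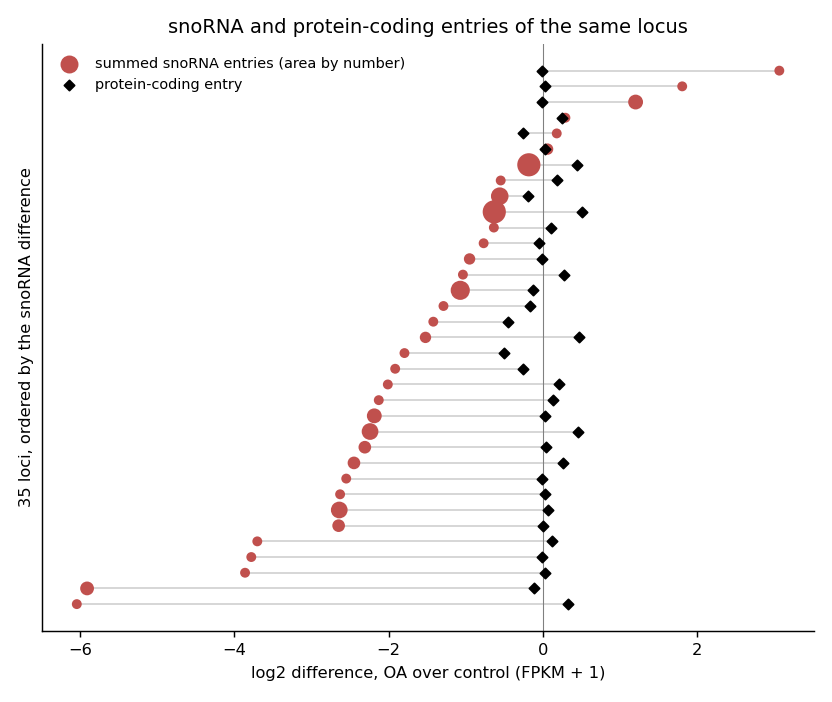
Log2 differences between OA and control of the summed snoRNA entries (red circles, area by their number) and of the protein-coding entry (black diamonds) in 35 loci, ordered by the snoRNA difference. The diamonds stay between -0.51 and 0.50, and 29 of the circles lie left of their diamond.

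The share of snoRNA entries listed at 0 was also set beside the level of the protein-coding entry, with no test of the difference. Of 37 entries in loci whose protein-coding entry had a mean under 100 FPKM, 17 (45.9%) were listed at 0 in both groups. This was so for 7 of 50 entries (14%) where it was from 100 to 1000 FPKM and for 6 of 56 (10.7%) where it was 1000 FPKM or more. From the lowest range to the highest, the median difference was -2.13, -1.67 and -1.49, over 15, 30 and 43 entries above 0 in both groups. Of the 43 entries in loci of the highest range, 28 were at least 2-fold lower in OA and 0 at least 2-fold higher. In OA 5 of 143 snoRNA entries had a larger FPKM than the protein-coding entry of their locus, against 17 in control. As a ratio, the largest in control was that of *snoRNA:GM27505*, whose protein-coding neighbour in the locus was at 4.28 FPKM in OA and 3.22 FPKM in control. The only protein-coding entry of such a locus with a gene name is *sta*, which encodes a ribosomal protein and is given here for its name. It was at 4254 FPKM in OA and 5075 FPKM in control, and *snoRNA:GM27556* in its locus was listed at 0 in OA and at 332 FPKM in control.

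The loci with the most snoRNA entries showed how far members of 1 locus can differ. The locus on scaffold 4 from 4884339 to 4886333 holds 7 snoRNA entries, all lower in OA. They ranged from 29.1 to 97.99 FPKM in OA and from 140 to 486 FPKM in control. The differences of single entries lay between -3.39 and -0.51. The protein-coding entry was at 5866 FPKM in OA and 4280 FPKM in control. The 7 entries on scaffold 22 from 1028623 to 1031779 were also all lower, with a sum of 75.4 FPKM in OA and 475 FPKM in control, and 2 of them were listed at 0 in OA. On scaffold 17, from 879589 to 882332, 8 of 10 entries were lower and 2 higher in OA, and the sum was 438 FPKM in OA and 922 FPKM in control.

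Other large loci were mixed. The 8 entries on scaffold 6 from 1536874 to 1540112 had differences from -2.59 to 3.66 among the 7 above 0 in both groups, and *snoRNA:GM27607* is one of them. Their sum was 489 FPKM in OA and 721 FPKM in control. Of 16 entries on scaffold 18 from 305391 to 310199, 8 were lower and 5 higher in OA, and 3 were listed at 0 in both groups. Of 16 entries on scaffold 9 from 543065 to 557943, 10 were lower and 2 higher. There the sum, at 2482 FPKM in OA and 2816 FPKM in control, was carried by *snoRNA:GM27650*. The 5 entries on scaffold 2 from 5692405 to 5695364 had a sum of 221 FPKM in OA and 95.6 FPKM in control, although 4 of the 5 were lower in OA. *snoRNA:GM27549*, named here because it sets this sum, was at 182 FPKM in OA and listed at 0 in control.

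Of the 89 entries with a locus of their own, 62 lie in 10 rows of at least 2 entries spaced by no more than 500 bases, and 27 stand alone. Gaps within the rows were 129 to 419 bases, and 0 of the rows hold another entry of the table between their members. The longest row, 16 entries on scaffold 1 from 11085690 to 11089683, had few entries above 0 in control: 9 were listed at 0 in both groups, 5 at 0 in control only and 1 at 0 in OA only. The entry above 0 in both, *snoRNA:GM27519*, was at 161 FPKM in OA and 424 FPKM in control. A second row of 11 entries on scaffold 1, from 8026353 to 8028888, had 8 entries listed at 0 in both groups. The rows on scaffold 11, on scaffold 18 and on scaffold 2 from 3215917 to 3216415, with 4, 3 and 3 entries, were listed at 0 throughout in both groups.

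The row of 7 entries on scaffold 1 from 2621112 to 2622897 held the sharpest contrasts between neighbours. In order of position, *snoRNA:GM27479* was at 22.3 FPKM in OA and 62.7 FPKM in control, and *snoRNA:GM27480* at 188 FPKM in OA and 949 FPKM in control. *snoRNA:GM27481* and *snoRNA:GM27482* were at 706 and 1607 FPKM in OA and listed at 0 in control. *snoRNA:GM27483* was listed at 0 in OA and at 368 FPKM in control, and *snoRNA:GM27484* at 0 in both groups. *snoRNA:GM27485* was at 82.4 FPKM in OA and 547 FPKM in control. In this row the 3 entries of 140 bases or more were all above 0 in both groups and lower in OA, and the 4 entries of 76 to 84 bases were each listed at 0 in at least 1 group. The sum of the row was 2606 FPKM in OA and 1927 FPKM in control. It was higher in OA only with both *snoRNA:GM27481* and *snoRNA:GM27482* included.

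The last 2 rows described had members in both directions. The 6 entries on scaffold 5 from 312108 to 313409 had a sum of 872 FPKM in OA and 873 FPKM in control, with 3 entries higher and 2 lower in OA. *snoRNA:GM27591* in this row was at 194 FPKM in OA and 74.0 FPKM in control, and its neighbour *snoRNA:GM27592* at 204 FPKM in OA and 108 FPKM in control. The row of 4 on scaffold 3 from 5339782 to 5340752 had a sum of 1628 FPKM in OA and 2863 FPKM in control. In it *snoRNA:GM27560*, given above among the highest entries, was lower in OA. *snoRNA:GM27561* was at 191 FPKM in OA and 134 FPKM in control and *snoRNA:GM27563* at 441 FPKM in OA and 379 FPKM in control. *snoRNA:GM27562* between them was listed at 0 in OA and at 1062 FPKM in control. The single entries of the rows were named after their values were seen.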

How the data were processed

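Poly(A) RNA of 6 libraries was sequenced as single-end reads of 50 nt. Per the study's methods, Bowtie2 mapped them to an Ensembl genome of the species, and Cuffdiff, within Galaxy, estimated levels on the gene file of release 34. Its settings were geometric normalization together with corrections for length and sequence bias. Tool versions are not given in the sources used here. The FPKM values the authors deposited are 1 per entry and group, so depth and spread per library were not analysed here, and the precision of low values is not known. The columns of the authors' own comparison (fold change, test statistic, p and q) were not used.

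Groups follow the sample labels. Differences used a pseudocount of 1 FPKM, for entries above 0 in both groups with a mean of at least 1 FPKM. An entry was counted as lower or higher from 2-fold on this scale. Loci are those of the file, with starts counted from 0 there: 66.7% of 5749 protein-coding loci under 1000 bases were whole codons when read so, against 16.2% when starts were taken as counted from 1. The text gives positions with the first base as 1.

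The entries named were the 10 of highest mean, the 8 most higher and 8 most lower, and the 3 highest listed at 0 in each single group. *snoRNA:GM27607* was also chosen as nearest the median of the mean levels, without entries listed at 0 in both groups. Others are named with their locus or row. The members and lists were chosen with earlier results of these data known. A list of 12 snoRNP protein genes matched 0 names of the file, and the RefSeq name table matched 0 of the 242 identifiers. The steps were tested on simulated data. Python 3.11.15, NumPy 2.4.6, pandas 2.3.3 and Matplotlib 3.10.9 were used.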

Additional observations from a re-analysis of the deposited data

How the results depend on the processing

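No paired analysis was possible because libraries have no values of their own in a table with 1 value per group, and no library could be left out. The split into C/D and H/ACA classes was not run because no name tells the class, and the weighting by span could be run only for entries with a locus of their own. The median difference stayed negative under all 13 alternatives, between -1.89 and -1.25. Dropping the filter on low values and summing copies of the same name could not change it. All compared entries passed the filter, and each has a name of its own. The count of 73 entries at least 2-fold lower in OA became 39 with a mean of at least 100 FPKM, 15 with only entries that have their own locus and 39 with the entries of a locus summed, in each case among fewer values. The count of 7 at least 2-fold higher became 2, 1 and 4 under the same settings. With entries listed at 0 in 1 group kept, the counts became 93 lower and 30 higher, both by construction. The log2 ratio of the sums, -0.10, depended on *snoRNA:GM27634*. It was -1.07 without that entry, -1.11 without the 5 and -1.32 without the 10 highest, -1.34 over shared loci, 0.29 over entries with their own locus, 0.21 when these were weighted by span and 0.0502 with both groups rescaled to the same total FPKM, which moves every OA value by 0.15 on the log2 scale. The settings by locus and the one without the highest entry alone were added after seeing the data.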
